A study of Danio rerio with 6 samples.

Results

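The spliceosome genes of zebrafish atrial cardiomyocytes (CMs) were compared between 72 and 48 hours post fertilization (hpf). A gene was counted as a spliceosome gene when it was protein-coding, carried the KEGG pathway term Spliceosome in the deposited table and had a mean raw count above 5 over the 6 libraries. This gave 131 of the 23000 genes in the table, and 131 of its 15596 protein-coding genes above that count, and none of the genes with the term was lost to the count minimum. RNA from sorted atrial CMs was sequenced in bulk in 3 libraries at 72 hpf and 3 libraries at 48 hpf, to find genes that differ as the atrial wall takes shape. Both groups were labelled wild-type, and neither the sample titles nor the paper's account of the sorting names an agent given to the fish. The sorted fish carried myh6:mTagBFP2, which marks atrial CMs, myh7:mCherry-NTR, which marks ventricular CMs, and 7XTCF-Sia:eGFP, a reporter of Wnt/β-catenin signalling that is active in the atrioventricular canal and the sinus venosus. Cells high for mTagBFP2, low or negative for mCherry, negative for eGFP and negative for the dead-cell dye DRAQ7 were kept, so cells with a Wnt/β-catenin signal were gated out at both stages. Hearts were pooled over several sorting sessions, and the cells of replicates 1 and 2 passed through a FACSAria and a BigFoot sorter while those of replicate 3 passed through the BigFoot only. The labels do not say that the libraries came from separate clutches, so p-values measure only the spread between these libraries.

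The spliceosome removes introns from pre-mRNA. The U1 particle binds the start of the intron and the U2 particle its branch point, the preassembled U4/U6.U5 tri-snRNP then joins, and a series of RNA helicases and the PRP19 complex rearrange the particles into the catalytic form that joins the exons. Each small nuclear ribonucleoprotein (snRNP) is built on a short RNA that carries a ring of Sm or LSm proteins. SR proteins and heterogeneous nuclear ribonucleoproteins (hnRNPs) bind the pre-mRNA and set which splice sites are used. The roles given below are those of the human or yeast proteins. By these roles 129 of the 131 genes were placed in 10 lists, from 23 genes of the U2 particle to 6 of the Hsp70 family, which the KEGG term includes, and 2 genes (rp9 and zgc:163098) were given no role.

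The libraries held 3577234 to 4541886 counts at 72 hpf and 3694451 to 5629941 counts at 48 hpf. Of these counts the spliceosome genes took 1.54%, 1.60% and 1.68% in the 72 hpf libraries (mean 1.61% ± 0.0693) and 1.48%, 1.49% and 1.55% in the 48 hpf libraries (mean 1.51% ± 0.0371, SD, n = 3 each), and the ranges overlapped. Their mean raw count per library had a median of 412, from 34.5 for hnrnpa3 to 3322 for hspa8, against a median of 130 over the 16073 genes tested. Only hsc70 in 48 hpf replicate 2 and hnrnpa3 in 48 hpf replicate 3 were at or under 3 counts, the floor used here, which corresponds to 0.533 to 0.839 CPM (counts scaled to the size of the library) and covers counting error only. Genes listed as atrial markers summed to 2793 to 3267 CPM at 72 hpf and 2258 to 3217 CPM at 48 hpf, with kcnj3a at or under the floor at both stages. Genes listed as ventricular markers summed to 2082 to 2345 CPM at 72 hpf and 2463 to 3297 CPM at 48 hpf, with irx4a at 0 in every library. Raw counts of myh7l were 91, 137 and 96 at 72 hpf, against 899, 769 and 1173 at 48 hpf. Those of myh7 were also lower in every 72 hpf library, and those of myh7ba, myh7bb and hey2 overlapped between the stages. The 10 leukocyte markers summed to 0 to 91.6 CPM at 72 hpf, with lyz, mpx and spi1b at or under the floor, against 334 to 776 CPM at 48 hpf. The 8 endothelial markers summed to 28.5 to 264 CPM at 72 hpf, with 5 at or under the floor and fli1a and tie1 at 0, against 123 to 360 CPM at 48 hpf. The 6 erythrocyte markers summed to 2.20 to 104 CPM at 72 hpf and 6.99 to 480 CPM at 48 hpf. Epicardial markers summed to 211 to 669 CPM at 72 hpf and 310 to 766 CPM at 48 hpf, but they did not move alike. In raw counts aldh1a2 had 601, 1496 and 1040 at 72 hpf, against 325, 979 and 407 at 48 hpf. For tbx18 they were 193, 805 and 352 at 72 hpf, against 998, 1743 and 369 at 48 hpf. For tcf21, wt1a and wt1b the highest counts were also at 48 hpf. Neuronal markers summed to 54.5 to 125 CPM at 72 hpf and 61.7 to 151 CPM at 48 hpf. Of these, elavl3 and gng3 were at 0 at 72 hpf, while elavl3 had raw counts of 135, 376 and 51 at 48 hpf. The part of these other cells in the values below was not tested, and in bulk RNA fewer cells of a type and less RNA per cell cannot be told apart. Raw counts of nppa (2399 to 2632) and myh6 (6919 to 7877), both listed here as atrial markers, varied little between libraries of unlike total. Their CPM values therefore depend on the library total, and the sums above are no measure of purity.

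No spliceosome gene passed the test between the stages. By the quasi-likelihood test of edgeR, an adjusted p below 0.05 and a change beyond 1.5-fold were reached by 0 of 131 spliceosome genes, against 0.00622% of the 16073 genes tested, which is 1 gene, so edgeR called almost nothing in these libraries as a whole. DESeq2, which called 1.15% of 15777 genes higher and 2.77% lower at 72 hpf, also called 0 of the 131 in either direction, and its lowest adjusted p among them was 0.126, for ddx42. The adjusted p-values of the 131 genes in edgeR lay between 0.515 and 0.999. At an unadjusted p below 0.05, edgeR had 3 of the 131 (2.29%) higher at 72 hpf, against 3.12% of all genes tested, and 1 of the 131 (0.763%) lower, against 5.64%. At that level DESeq2 had 4 of the 131 (3.05%) higher, against 6.0% of the 15805 genes it gave a p, and 2 (1.53%) lower, against 9.7%. The 3 higher genes in edgeR, ddx42, dhx15 and cherp, were all placed in the U2 list, and the lower one was the SR protein gene srsf5b. The place of dhx15 was a choice, since its helicase takes spent spliceosomes apart and could also stand in the list of catalytic steps and release. The lists were drawn up with earlier results of these data known, so this grouping is no test of the U2 list. Without 72 hpf replicate 3 the count of higher genes was 0 and without 72 hpf replicate 2 it was 1, and without 48 hpf replicate 1 or 2 the count of lower genes was 0. The shares of all genes in these fits are not given here, so these counts are not set against other genes. None of the 4 passed the correction for multiple tests.

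The estimates of the spliceosome genes lay close to 0. Their log2 fold changes (72 hpf over 48 hpf) had a median of 0.08, with the middle of the distribution between -0.04 and 0.25, against a median of -0.02 and a middle range of -0.55 to 0.36 over all genes tested. The extremes were pqbp1 at -0.90 and hnrnpa3 at 2.06. The estimate was above 0 for 89 of the 131 genes (67.9%), against 48.4% of all genes tested, but the sign depends on the scaling: with no scaling for library size, a setting added after the data were seen, 56 of 131 estimates were above 0 and the median was -0.06, while the median of all genes was -0.17. Relative to all genes the spliceosome genes thus stood 0.10 higher with TMM scaling and 0.11 higher without. With TMM scaling this difference lay between 0.058 without 48 hpf replicate 1 and 0.17 without 72 hpf replicate 2. The values with no scaling given for the lists below belong to the fit in which the median of all genes was -0.17. The share of all genes above 0 in that fit is not given here. Spliceosome genes have more counts than most genes tested, and among well-counted genes the medians lay closer. At a mean raw count of 600 or more they were 0.07 against 0.03 for all genes (76.3% against 55.7% above 0). From 300 to 600 counts they were 0.06 against 0.01 (62.2% against 51.1%). From 100 to 300 they were 0.13 against -0.01 (64.3% against 48.9%). Below 100, with 6 spliceosome genes, they were 0.42 against -0.16 (83.3% against 45.0%). The 3 libraries of a stage all lay above the 3 of the other in 12 genes that were higher at 72 hpf (9.16%, against 7.25% of all genes) and 5 that were lower (3.82%, against 9.33%). For any 1 of these genes an exact permutation test of 3 libraries against 3 gives p = 0.1, the smallest it allows.

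**Figure D1:**
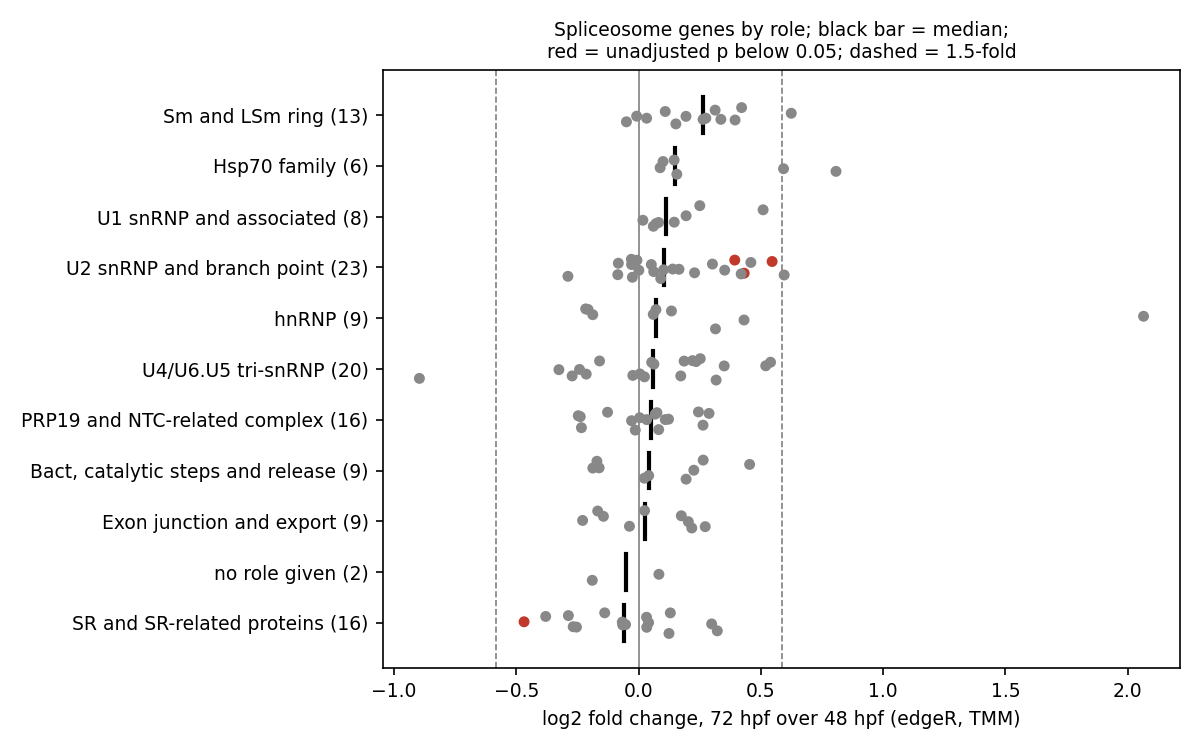
Log2 fold change of each of the 131 spliceosome genes, 72 hpf over 48 hpf, by role list (number of genes in brackets), with a black bar at the median of each list, dashed lines at 1.5-fold and red points for the 4 genes at an unadjusted p below 0.05. Most points lie between the dashed lines, the Sm and LSm ring has the highest median (0.26) and the SR proteins the lowest of the 10 lists with a role (-0.06), an order that leaving out 1 library can change. With no scaling for library size the medians of the U1, U2, tri-snRNP, PRP19, catalytic, exon junction and hnRNP lists turn negative while those of the Sm and LSm ring and the Hsp70 family stay above 0. All of these medians lie above that of all genes in that setting, by 0.06 for the PRP19 list to 0.29 for the Sm and LSm ring.

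The Sm and LSm ring genes had the highest median of the lists with all 6 libraries. Without 48 hpf replicate 2 the catalytic list was higher, at 0.23 against 0.18. Sm proteins form the ring on the U1, U2, U4 and U5 RNAs and LSm proteins the ring on U6. The genes lsm3, lsm4, lsm5, lsm6, lsm7 and lsm8 also carry the KEGG term RNA degradation, so their counts are not particular to U6. Of the 13 genes of the ring list, 11 had an estimate above 0 (9 with no scaling), with a median of 0.26 (0.12 with no scaling), and 0 reached an unadjusted p below 0.05. Over all genes tested, 3.12% were higher and 5.64% lower at that level. The list median stood 0.29 above that of all genes under either scaling. It lay between 0.18 and 0.30 when each library was left out in turn. The Sm gene snrpe, on danRer11 at chr11:37720552-37726201, had 281, 321 and 351 at 72 hpf, against 234, 215 and 276 at 48 hpf (TMM-normalised counts, as for all values per library below unless raw counts are named). Its 72 hpf libraries all lay above its 48 hpf libraries, and its log2 fold change was 0.39 (SE 0.23, 95% interval -0.15 to 0.94) with an edgeR p of 0.131, adjusted 0.657. The other Sm gene whose stages did not overlap, snrpg, had 222, 225 and 255 at 72 hpf, against 209, 157 and 219 at 48 hpf. The nearest libraries of snrpg are almost level. Among the LSm genes, lsm6 had 198, 204 and 238 at 72 hpf, against 134, 153 and 191 at 48 hpf, again without overlap, with a log2 fold change of 0.42 (SE 0.31, 95% interval -0.29 to 1.13). The largest estimate of the list was that of lsm5, at 0.62, on 77.7, 56.8 and 58.9 at 72 hpf, against 49.5, 44.6 and 31.3 at 48 hpf. The stages did not overlap. Counts that low leave an interval of -1.08 to 2.33, and lsm5 also overlaps the gene psme2. The gene snrpb, which tied with lsm4 for the most counts of the list and whose product carries the longest tail of the Sm proteins, had 427, 464 and 562 at 72 hpf, against 399.8, 413 and 457 at 48 hpf, and lsm7 had 437, 469.5 and 516 at 72 hpf, against 387, 307 and 452 at 48 hpf, both with overlapping stages and estimates of 0.19 (SE 0.18, 95% interval -0.23 to 0.62) and 0.31 (SE 0.20, 95% interval -0.17 to 0.79). Of the 13 estimates, those of snrpd3l (-0.05) and lsm4 (-0.01) were below 0. The summed count of the list was 3491, 3746 and 4074 at 72 hpf, against 3109.7, 3041 and 3688 at 48 hpf, and 48 hpf replicate 3 lay among the 72 hpf libraries.

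All 8 genes of the U1 list had an estimate above 0 with TMM scaling (4 of 8 with no scaling), with a median of 0.11 (-0.01 with no scaling, 0.043 to 0.20 with 1 library left out), and 0 reached an unadjusted p below 0.05. That median stood 0.14 above the median of all genes with TMM scaling and 0.16 above it with none. At the same p level were 3.12% of all genes in the higher and 5.64% in the lower direction. The proteins that make up the U1 particle itself gave 0.25 for snrnp70 (U1-70K), 0.08 for snrpa (U1-A) and 0.15 for snrpc (U1-C). For snrnp70 the counts were 513, 712 and 678 at 72 hpf, against 399, 449 and 754 at 48 hpf, so 48 hpf replicate 3 was the highest of the 6 libraries and the stages overlapped. The gene of this list with the most counts, the RNA helicase ddx5, had 2963, 3009 and 3465 at 72 hpf, against 3025, 2865 and 3433 at 48 hpf. Its log2 fold change was 0.02 (SE 0.12, 95% interval -0.26 to 0.29), the narrowest interval of the 131 genes, which lies inside 1.5-fold in both directions.

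The U2 list, drawn up like the others with earlier results of these data known, held the 3 genes with the lowest edgeR p-values among those higher at 72 hpf. Of these, dhx15 could also have been placed in the list of catalytic steps and release. U2AF proteins read the end of the intron, the SF3A and SF3B complexes hold the U2 RNA on the branch point, and several helicases and SR-related proteins act with them. Of 23 genes, 16 had an estimate above 0 (11 with no scaling), with a median of 0.10 (-0.04 with no scaling, 0.10 to 0.15 with 1 library left out). That median stood 0.13 above the median of all genes both with TMM scaling and with none. The DEAD-box helicase gene ddx42 (chr3:31879442-31893008) had 609, 557 and 640.4 at 72 hpf, against 457, 464 and 315 at 48 hpf. All 72 hpf libraries lay above all 48 hpf libraries, and 48 hpf replicate 3 was the lowest. The log2 fold change was 0.55 (SE 0.20, 95% interval 0.08 to 1.01) with an edgeR p of 0.0271, adjusted 0.515. For dhx15 (chr7:71278625-71331690), the helicase that takes spent spliceosomes apart, the counts were 972, 1084 and 1188 at 72 hpf, against 907, 851 and 710.4 at 48 hpf. The stages again did not overlap and 48 hpf replicate 3 was again lowest, with a log2 fold change of 0.39 (SE 0.15, 95% interval 0.05 to 0.74) and an edgeR p of 0.0299, adjusted 0.542. The gene cherp (chr22:4962370-4990045), whose product binds the U2 particle together with that of u2surp, had 527, 699 and 718 at 72 hpf, against 487, 443 and 511 at 48 hpf. Its lowest 72 hpf library and its highest 48 hpf library were only slightly apart, and its log2 fold change was 0.43 (SE 0.18, 95% interval 0.02 to 0.84) with an edgeR p of 0.0425, adjusted 0.565. By contrast u2surp itself had an estimate of 0.05.

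**Figure D2:**
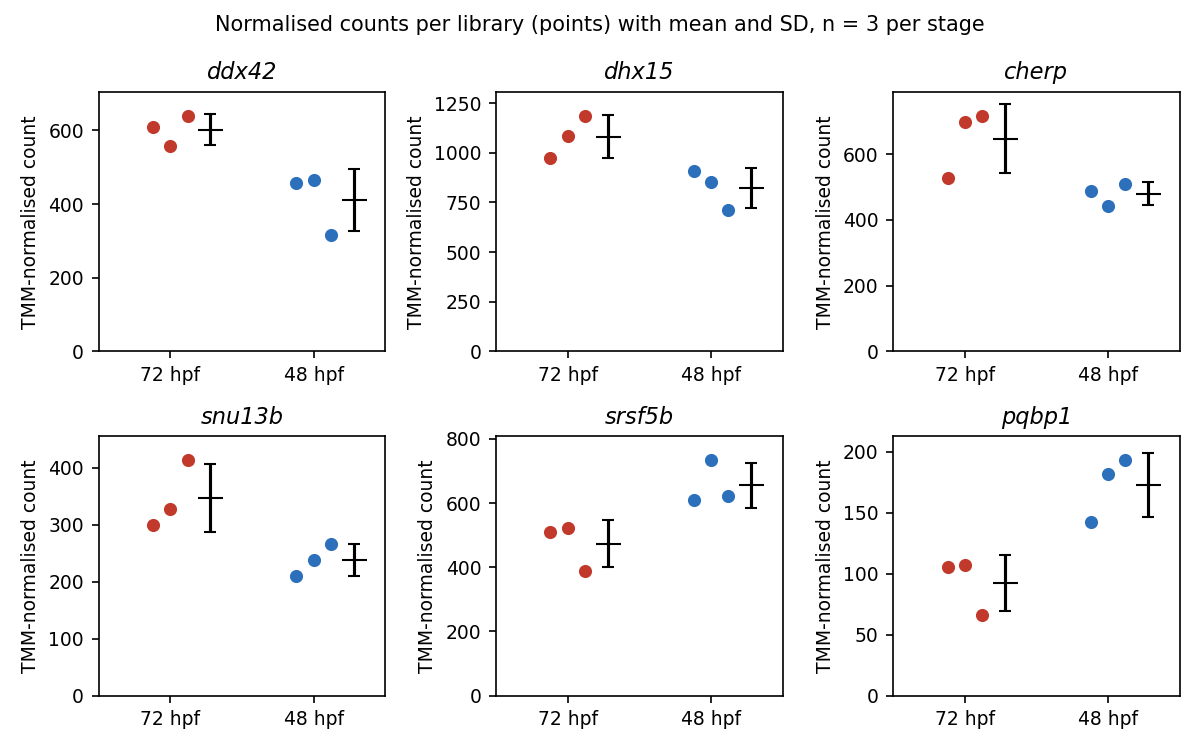
TMM-normalised counts of 6 spliceosome genes in each library (points; red, 72 hpf; blue, 48 hpf), with the mean and SD of the 3 libraries of a stage beside them; every vertical axis starts at 0. The 72 hpf points of ddx42, dhx15, cherp and snu13b all lie above their 48 hpf points, and those of srsf5b and pqbp1 all lie below, yet none of these genes passed the adjusted test.

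Further components of the U2 particle differed without overlap between the stages, in opposite directions. The U2-A′ gene snrpa1 had 301, 325 and 358 at 72 hpf, against 206, 268 and 298 at 48 hpf, with a log2 fold change of 0.35 (SE 0.24, 95% interval -0.20 to 0.91). The gene sf3b6, whose product touches the branch point adenosine, had 261, 265 and 177 at 72 hpf, against 285, 277 and 296 at 48 hpf, with a log2 fold change of -0.29 (SE 0.26, 95% interval -0.89 to 0.32). For sf3b5, a small SF3B subunit, the stages were also apart but by little, with 239, 244 and 227 at 72 hpf, against 218, 191 and 225 at 48 hpf and an estimate of 0.17. The large subunits that make up the SF3B core showed no such separation. For sf3b1, the subunit that clamps the branch helix and the gene of this list with the most counts, the counts were 1364, 1306 and 1575 at 72 hpf, against 1482, 1436 and 1584 at 48 hpf, with overlapping stages and a log2 fold change of -0.08 (SE 0.12, 95% interval -0.36 to 0.19). The estimates of sf3b2, sf3b3 and sf3b4 were 0.10, 0.09 and 0.23, those of sf3a1, sf3a2 and sf3a3 were 0.00, 0.06 and -0.08, and those of u2af1, u2af2a and u2af2b were 0.30, 0.14 and -0.03. The largest estimate in the list, 0.60 (SE 0.79, 95% interval -1.26 to 2.45) for the splicing factor rbm17, came with counts of 112, 225 and 103 at 72 hpf, against 144, 131 and 15.6 at 48 hpf, and it was 0.10 without the low 48 hpf replicate 3. Summed over the 23 genes, the list had 13159.5, 13570.5 and 13563 at 72 hpf, against 12179, 12603 and 12153 at 48 hpf. These sums did not overlap, a ratio of 1.09, and did not overlap with library totals as the scaling either. The raw sums overlapped, at 13888, 13845 and 11055 at 72 hpf against 13038, 16124 and 10110 at 48 hpf. Raw sums also carry the library totals, which spanned a ratio of 1.57, so their overlap cannot decide whether the sums differ.

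The estimates of the tri-snRNP list ran from pqbp1 at -0.90 to snu13b at 0.54. Its 20 genes include prpf8, the scaffold of the active site, the helicase snrnp200, the GTPase eftud2 and the proteins that bind the U4 and U6 RNAs. An estimate above 0 was found for 13 of 20 (10 with no scaling), with a median of 0.06 (-0.04 with no scaling), and 0 reached an unadjusted p below 0.05 in edgeR. The shares of all genes at that p were 3.12% higher and 5.64% lower. Compared with all genes, the list median stood 0.08 higher with TMM scaling and 0.13 higher with none. The list median itself was -0.030 without 48 hpf replicate 1 and up to 0.13 with another library left out. The gene snu13b (chr12:10443785-10447178), whose product binds a folded stretch of U4 RNA, had 298, 326 and 413 at 72 hpf, against 210.2, 238 and 266 at 48 hpf. Its stages did not overlap, and the log2 fold change was 0.54 (SE 0.24, 95% interval -0.01 to 1.09) with an edgeR p of 0.055, adjusted 0.565. Its paralogue snu13a had 152, 144 and 178 at 72 hpf, against 142, 96.1 and 133 at 48 hpf, also without overlap, and an estimate of 0.35. The gene pqbp1 (chr8:36582728-36589390), which encodes a polyglutamine-binding protein that contacts the U5 protein TXNL4A, had 105, 107 and 66.2 at 72 hpf, against 143, 182 and 194 at 48 hpf. Every 72 hpf library lay below every 48 hpf library, and the log2 fold change was -0.90 (SE 0.41, 95% interval -1.85 to 0.06) with an edgeR p of 0.0616, adjusted 0.565.

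The precatalytic tri-snRNP genes prpf38b and zmat2 also lay lower at 72 hpf in every library. For prpf38b the counts were 394, 409 and 263 at 72 hpf, against 461, 457 and 418 at 48 hpf, with an estimate of -0.33 (SE 0.22, 95% interval -0.85 to 0.20). For zmat2, which overlaps slbp2, they were 360.1, 299.9 and 286 at 72 hpf, against 378, 378 and 362 at 48 hpf, with an estimate of -0.24 (SE 0.20, 95% interval -0.70 to 0.22). The related prpf38a gave 0.22. For prpf8 the estimate was 0.52 (SE 0.37, 95% interval -0.34 to 1.38), on 768, 1175 and 1113 at 72 hpf, against 906, 884 and 338 at 48 hpf. The lowest library by far was 48 hpf replicate 3 and the other 48 hpf libraries lay among those of 72 hpf, and without that replicate the estimate was 0.19. For prpf6, which bridges U5 and U4/U6, the counts were 641, 709 and 862 at 72 hpf, against 608, 659.7 and 506 at 48 hpf with an estimate of 0.32 (SE 0.18, 95% interval -0.10 to 0.73), while snrnp200 gave 0.23 and eftud2 0.05, both with overlapping stages. Summed over the list the counts were 8524, 8509.9 and 8217 at 72 hpf, against 7416, 7925 and 8149.8 at 48 hpf. The sums did not overlap, at a ratio of 1.07, although the nearest libraries were close. The raw sums overlapped, but they also carry the unlike library totals and so cannot decide this.

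**Figure D3:**
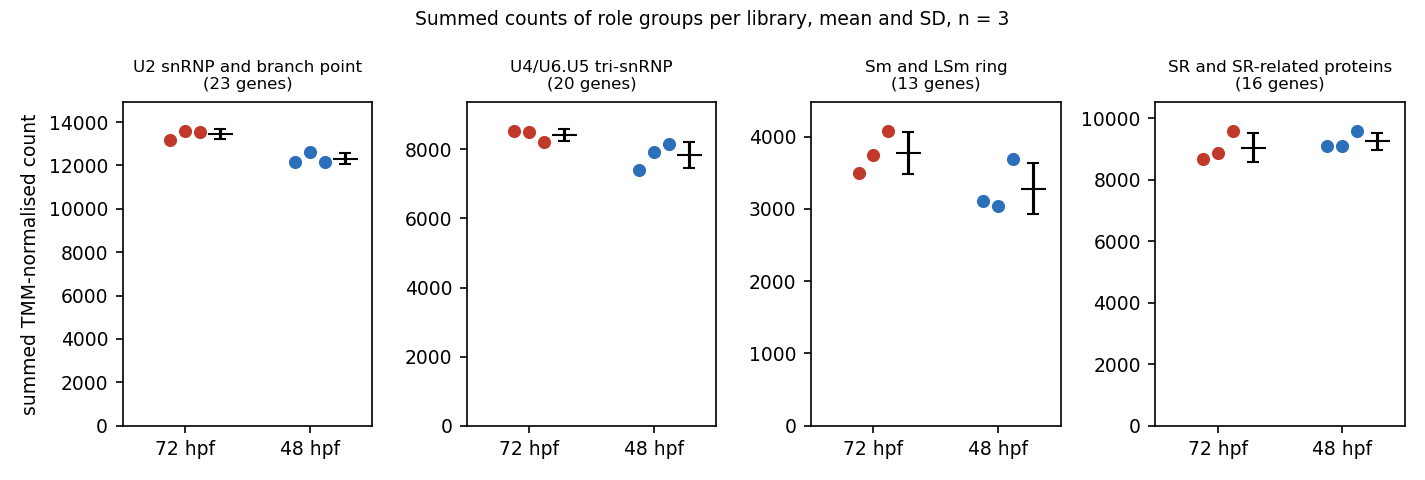
Summed TMM-normalised counts of 4 role lists in each library (points; red, 72 hpf; blue, 48 hpf), with the mean and SD of the 3 libraries of a stage; vertical axes start at 0. The sums of the U2 and tri-snRNP lists lie higher in every 72 hpf library with TMM scaling, and those of the Sm and LSm ring and of the SR proteins overlap between the stages. In raw counts, which also carry the unlike library totals, the U2 and tri-snRNP sums overlap too.

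Genes of the PRP19 complex, which holds the catalytic RNA in place, had 10 of 16 estimates above 0 (4 with no scaling) and a median of 0.05 (-0.11 with no scaling, -0.026 without 72 hpf replicate 3 and up to 0.11 without another library). That median stood 0.07 above the median of all genes with TMM scaling and 0.06 above it with none. The stages overlapped in all 16 genes, and over all genes 7.25% were higher and 9.33% lower without overlap. The ubiquitin ligase gene prpf19 had 677, 597 and 618 at 72 hpf, against 593, 578 and 635 at 48 hpf and an estimate of 0.07 (SE 0.14, 95% interval -0.26 to 0.40). The gene of this list with the most counts, snw1, had 680.3, 644 and 808 at 72 hpf, against 674, 692 and 659 at 48 hpf and an estimate of 0.08 (SE 0.14, 95% interval -0.26 to 0.41). At either end of the list lay syf2, with an estimate of -0.25 (SE 0.22, 95% interval -0.76 to 0.27), and xab2, with 0.29 (SE 0.20, 95% interval -0.18 to 0.76). Among the 9 genes of the activated complex, the catalytic steps and mRNA release, 6 estimates were above 0 (4 with no scaling) and the median was 0.04 (-0.07 with no scaling, 0.013 to 0.23 with 1 library left out). Compared with all genes, this median stood 0.06 higher with TMM scaling and 0.10 higher with none. The helicases that drive the catalytic steps and release gave 0.19 for dhx16, -0.16 for dhx38 and 0.45 for dhx8, which releases the finished mRNA. For dhx8 the counts were 295, 452 and 701 at 72 hpf, against 324, 453 and 278 at 48 hpf, so the libraries of each stage differed among themselves by more than the stage means did. The second-step factor slu7 had 168, 351 and 287 at 72 hpf, against 362, 401 and 142 at 48 hpf, and prpf18, which acts beside it, gave -0.19. The gene acin1a, an RNA-binding protein of the ASAP complex and the gene of this list with the most counts, had 1888, 2294 and 2412 at 72 hpf, against 1998, 1842 and 2568 at 48 hpf and an estimate of 0.04 (SE 0.16, 95% interval -0.34 to 0.42). Both acin1a and acin1b also carry the KEGG terms RNA transport and mRNA surveillance pathway, as the exon junction genes eif4a3 and magoh do. Their place in this list was thus a choice, and the list median is the estimate of acin1a itself.

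Genes of the exon junction complex, which is left on the mRNA after splicing, and of mRNA export gave estimates close to 0, with 5 of 9 above 0 (4 with no scaling) and a median of 0.02 (-0.09 with no scaling). That median stood 0.05 above the median of all genes with TMM scaling and 0.08 above it with none. The median was just below 0 without 72 hpf replicate 3, 48 hpf replicate 1 or 48 hpf replicate 2, at -0.012 to -0.0068, and without 72 hpf replicate 2 it was 0.20, with 8 of 9 estimates above 0. The core genes eif4a3, magoh and rbm8a gave 0.17, -0.04 and 0.02. For rbm8a the counts were 546, 609 and 622 at 72 hpf, against 552, 511 and 684 at 48 hpf, a log2 fold change of 0.02 (SE 0.17, 95% interval -0.37 to 0.42). The export adaptor alyref had 732, 848 and 985 at 72 hpf, against 712, 651 and 844 at 48 hpf, with an estimate of 0.22 (SE 0.17, 95% interval -0.17 to 0.61). The THO genes thoc1, thoc2 and thoc3 gave -0.17, -0.14 and -0.23. Of the list thoc2 had the most counts, with 961, 1239.9 and 1115 at 72 hpf, against 1100.4, 1434 and 1128 at 48 hpf, and thoc3 had 1 library far below the others in 153, 35.3 and 157 at 72 hpf, against 88.7, 160.2 and 155 at 48 hpf. The largest estimate, 0.27 (SE 0.37, 95% interval -0.60 to 1.14) for the export helicase ddx39b, came with counts of 318, 298 and 294 at 72 hpf, against 345, 282 and 126 at 48 hpf, and without the low 48 hpf replicate 3 it was -0.04. Both ddx39b and alyref overlap another gene of the table.

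Of the 10 lists with a role, the SR proteins were the 1 whose median lay below 0 with TMM scaling of all 6 libraries. It was 0.0088 without 48 hpf replicate 3, and the medians of the tri-snRNP, PRP19, exon junction and hnRNP lists were also below 0 in at least 1 fit with a library left out. SR proteins bind exonic enhancers and recruit the U1 particle and U2AF. Of 16 genes, 7 had an estimate above 0 (3 with no scaling) and the median was -0.06 (-0.18 with no scaling), close to the median of all genes under either scaling (-0.02 and -0.17). The gene srsf5b (chr20:28869969-28884829) had 509.8, 521 and 389 at 72 hpf, against 609, 735 and 621 at 48 hpf. All 72 hpf libraries lay below all 48 hpf libraries, and the log2 fold change was -0.47 (SE 0.18, 95% interval -0.89 to -0.05) with an edgeR p of 0.0333, adjusted 0.55. Its paralogue srsf5a, which had the most counts of the list, had 1074, 1137 and 1191 at 72 hpf, against 1141, 1118 and 1301 at 48 hpf, with overlapping stages and an estimate of -0.06 (SE 0.12, 95% interval -0.34 to 0.21). The next lowest were srsf9, at -0.38 (SE 0.28, 95% interval -1.03 to 0.27), and srsf4, at -0.29 (SE 0.19, 95% interval -0.73 to 0.15). For srsf4 the counts were 385, 402 and 549.6 at 72 hpf, against 548, 533 and 548 at 48 hpf, where the 48 hpf libraries were nearly equal and 72 hpf replicate 3 was level with them. At the other end srsf1b had an estimate of 0.32 (SE 0.24, 95% interval -0.23 to 0.87), on 605, 767 and 718 at 72 hpf, against 703, 580.0 and 387 at 48 hpf. The well-counted srsf3b, with 877, 898 and 875 at 72 hpf, against 899.6, 859 and 992 at 48 hpf, and srsf7a, with 887, 920.4 and 942 at 72 hpf, against 1018, 836 and 1025 at 48 hpf, gave -0.05 and -0.07.

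Zebrafish carry many splicing genes as 2 copies, and 12 such pairs were among the 131 genes. The share of the first copy in the raw counts of its pair does not depend on the scaling between libraries. That share did not overlap between the stages in 1 of the 12 pairs. Of the srsf5a and srsf5b counts, srsf5a took 67.8%, 68.6% and 75.4% at 72 hpf, against 65.2%, 60.3% and 67.7% at 48 hpf, a mean of 70.6% ± 4.18 at 72 hpf and 64.4% ± 3.73 at 48 hpf (SD, n = 3 each). The nearest libraries differed by very little, and the exact permutation test gave p = 0.1, adjusted 0.764 over the 12 pairs. For snu13a and snu13b, whose counts were both apart between the stages, the share of snu13a was 33.7%, 30.6% and 30.1% at 72 hpf, against 40.3%, 28.7% and 33.4% at 48 hpf, and overlapped. The copies of acin1 had nearly the same share at both stages, with acin1a at 68.2% ± 0.883 at 72 hpf and 68.1% ± 2.75 at 48 hpf (SD, n = 3 each, exact permutation p = 0.9). Pairs also differed in how uneven their counts were, since srsf7a took 94.9% of its pair at 72 hpf and 94.0% at 48 hpf, while srsf6a took 23.5% at 72 hpf and 22.5% at 48 hpf. The shares were not corrected for the length of each copy, so they are no measure of relative expression of the copies. Reads that fit both copies of a pair equally were left out by the authors, so these shares rest on reads that tell the copies apart.

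The hnRNP list held the largest estimate of all, on the fewest counts. The raw counts of hnrnpa3 were 48, 61 and 50 at 72 hpf, against 6, 40 and 2 at 48 hpf. The 48 hpf libraries were uneven and 1 of them was under the floor, so the log2 fold change of 2.06 (SE 1.24, 95% interval -0.83 to 4.96) had the widest spread of its list, with an edgeR p of 0.137 and adjusted p of 0.664, although the stages did not overlap. Over the 9 genes 6 estimates were above 0 (3 with no scaling) and the median was 0.07 (-0.06 with no scaling, -0.049 without 72 hpf replicate 3 and up to 0.24 without another library). Compared with all genes, this median stood 0.09 higher with TMM scaling and 0.11 higher with none. The gene of this list with the most counts, hnrnpub, had 831, 1339.9 and 1157 at 72 hpf, against 1279.7, 1443 and 1142 at 48 hpf, a log2 fold change of -0.22 (SE 0.19, 95% interval -0.67 to 0.24). The gene hnrnpa1b had 301, 549 and 537 at 72 hpf, against 376, 263 and 389 at 48 hpf, a log2 fold change of 0.43 (SE 0.29, 95% interval -0.25 to 1.11). All 6 genes of the Hsp70 family, chaperones that KEGG lists with the spliceosome, had estimates above 0 (4 with no scaling), with a median of 0.15 (0.03 with no scaling, 0.033 to 0.27 with 1 library left out). The family median stood 0.17 above that of all genes with TMM scaling and 0.20 above it with none. The constitutive chaperone hspa8 had 3188, 3356 and 3753 at 72 hpf, against 3053, 2899.8 and 3735 at 48 hpf, with an estimate of 0.09 (SE 0.13, 95% interval -0.22 to 0.39). The copies hsp70.1 and hsp70.3, which lie close together on chromosome 3 and both overlap atp2a1, gave 0.15 and 0.10, with 0.16 for hsp70l and 0.59 for hspa1b. For hsc70 the raw counts were 82, 80 and 97 at 72 hpf, against 107, 1 and 47 at 48 hpf, with an estimate of 0.81 that was 0.23 without 48 hpf replicate 2. Genes of this family are alike in sequence and the counts leave out reads that map to several places, so their levels are uncertain. Of the genes with no role given, rp9 had an estimate of -0.19 (SE 0.50, 95% interval -1.37 to 0.99) and zgc:163098 of 0.08 (SE 0.41, 95% interval -0.88 to 1.05).

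The estimates had narrow intervals for the well-counted genes, so a difference of a given size in the deposited counts could be bounded. Duplicate reads had been removed from these single-end data, and raw counts of the largest genes varied less than the library totals. The part of this in the width of the intervals and the size of the estimates was not tested. For 39 of the 131 spliceosome genes (29.8%) the whole 95% interval of the fold change lay within 1.5-fold in both directions, against 9.03% of all genes tested. The median standard error was 0.24 for the spliceosome genes and 0.61 for all genes tested. Among genes with a mean raw count of 600 or more, 27 of 38 spliceosome genes (71.1%) were bounded in this way, against 49.6% of the 2127 genes of that range, and between 300 and 600 counts it was 12 of 45 (26.7%), against 14.6% of 2605. Below 300 counts 0 of 48 spliceosome genes were bounded, against 0.123% of 11341, so almost no gene of that count was. The median size of the log2 fold change, regardless of sign, was 0.09 for spliceosome genes with 600 counts or more, against 0.17 for all genes there, and 0.16 against 0.25 between 300 and 600 counts. Between the libraries of a stage the coefficient of variation of a spliceosome gene had a median of 15.4% at 72 hpf and 13.9% at 48 hpf. For the other 92 genes the interval reached past 1.5-fold in at least 1 direction.

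**Figure D4:**
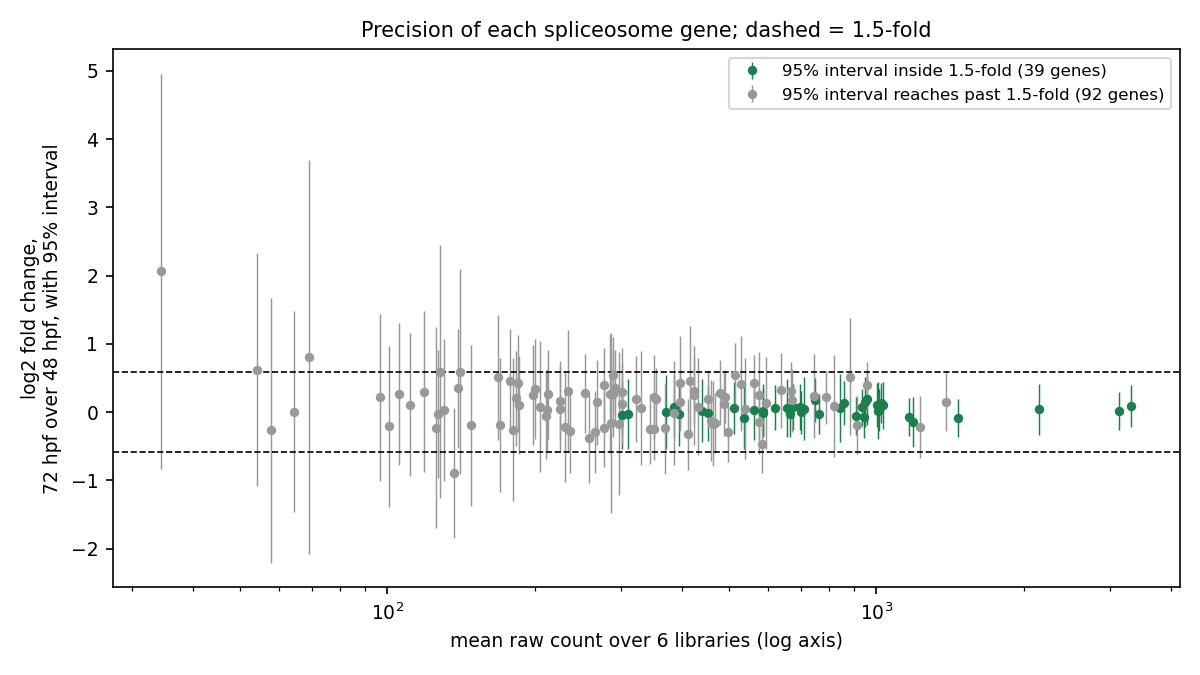
Log2 fold change of each spliceosome gene, 72 hpf over 48 hpf, with its 95% interval from edgeR, against the mean raw count over the 6 libraries on a log axis; dashed lines mark 1.5-fold. Intervals narrow as the count grows: the 39 genes in green have the whole interval between the dashed lines and all have more than 300 counts, and the widest interval is that of hnrnpa3.

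Raw counts of the largest spliceosome genes varied less between libraries than the library totals did. The totals spanned a ratio of 1.57 from the smallest to the largest library. For hspa8 the raw counts were 3364, 3424 and 3059 at 72 hpf, against 3268, 3710 and 3107 at 48 hpf, a ratio of 1.21. For hsp70l they were 1485, 1341 and 1391 at 72 hpf, against 1493, 1307 and 1296 at 48 hpf, a ratio of 1.15. For ddx5 the ratio was 1.30 and for acin1a it was 1.20. Of the 10 genes with the most counts, 8 varied less than the totals, the exceptions being hnrnpub (2.10) and thoc2 (2.02), and 46 of all 131 did. The share over all genes tested was not computed, so this is not shown to be a trait of spliceosome genes. The genes nppa and myh6, listed above as atrial markers and outside the spliceosome list, also varied little. Duplicate reads were removed in single-end data before counting, and its part in this pattern was not tested. Scaling to the totals raises such genes in the smaller libraries, and hspa8 and ddx5 had their highest normalised values in replicate 3 of both stages, the smallest library of each. The totals averaged 4194598 counts at 72 hpf and 4682472 counts at 48 hpf.

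**Figure D5:**
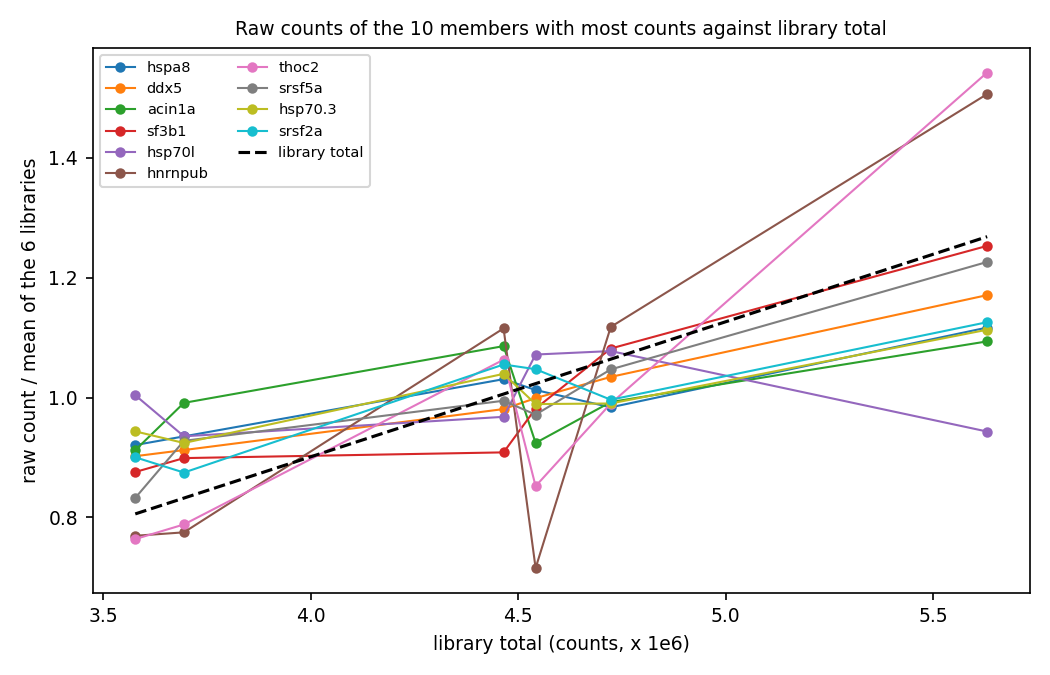
Raw counts of the 10 spliceosome genes with the most counts, each divided by its mean over the 6 libraries, against the library total; the dashed line is the library total divided in the same way. Lines flatter than the dashed line belong to genes whose counts varied less than the totals (8 of 10), and hnrnpub and thoc2 are steeper.

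Values far from the other libraries of their stage were few among the spliceosome genes. These genes have more counts than most genes tested (median 412 against 130), and the share among genes of like count was not computed. In 48 hpf replicate 3, 5 spliceosome genes (ddx39b, hnrnpa3, prpf8, rbm17 and slu7) had under 50% of the count of each of the other 48 hpf libraries, against 1 gene each in 72 hpf replicate 1 (u2af1), 72 hpf replicate 2 (thoc3) and 48 hpf replicate 2 (hsc70) and 0 in the others. Over all genes tested this share was 18.4% in 48 hpf replicate 3 and 5.49% to 14.6% in the other libraries. More than 200% of the count of each of the other libraries of the stage was found for 2 spliceosome genes in 72 hpf replicate 1, 2 in 72 hpf replicate 2, 1 in 48 hpf replicate 1, 3 in 48 hpf replicate 2 and 0 in replicate 3 of both stages, against 6.68% to 11.3% of all genes. The 48 hpf replicate 3 library also had the highest leukocyte and erythrocyte sums, 776 and 480 CPM, and whether these values are connected was not tested. Without that library, 98 of the 131 estimates were above 0. The median log2 fold change was then 0.10, which was 0.12 above that of all genes in the same fit. At an unadjusted p below 0.05 edgeR had 2 genes higher and 1 lower in that fit, and the share of all genes there is not given here.

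Related gene lists outside the KEGG term gave no call either. The 13 tested genes of snRNP assembly, which load the Sm ring onto the RNAs and carry the particles to the nucleus, had 11 estimates above 0 (9 with no scaling) and a median of 0.20 (0.08 with no scaling, 0.13 without 48 hpf replicate 3 and 0.43 without 48 hpf replicate 1), with 0 at an unadjusted p below 0.05. At that level were 3.12% of all genes higher and 5.64% lower. Compared with all genes, the median of these 13 genes stood 0.23 higher with TMM scaling and 0.25 higher with none. Among them clns1a, which holds Sm proteins before loading, had raw counts of 401, 313 and 222 at 72 hpf, against 235, 319 and 172 at 48 hpf, a log2 fold change of 0.51 (SE 0.24). The gene snupn, the import adaptor of the particles, had 208, 217 and 140 at 72 hpf, against 109, 180 and 126 at 48 hpf, a log2 fold change of 0.56 (SE 0.34). For smn1 and prmt5 the estimates were -0.35 and 0.22. Of 11 genes of the minor spliceosome, which removes a rare class of introns, 7 were above 0 (6 with no scaling), with a median of 0.12. It was -0.019 without 72 hpf replicate 1 and between 0.061 and 0.33 without each other library. The kinases that phosphorylate SR proteins had 2 of 9 above 0 (1 with no scaling) and a median of -0.19, against -0.02 for all genes. Their median lay between -0.47 without 72 hpf replicate 1 and -0.12 without 72 hpf replicate 3, with 1 to 3 of 9 above 0. In this list srpk1b was at -0.75 (SE 0.60) and srpk3 at 0.14 (SE 0.28). The outer exon junction and RNA decay genes had 3 of 12 above 0 (1 with no scaling) and a median of -0.21. This was -0.079 without 48 hpf replicate 1 and -0.086 without 48 hpf replicate 2, each with 5 of 12 above 0, and -0.12 without 72 hpf replicate 1. Of the 14 Integrator genes, which process the U RNAs as they are made, 6 were above 0 (median -0.06). Without 72 hpf replicate 3, 48 hpf replicate 1 or 48 hpf replicate 2 it was 10, 8 and 9 in that order, with medians of 0.27, 0.20 and 0.27. Of these 14 genes 1, ints13, reached an unadjusted p below 0.05 in the lower direction (log2 fold change -0.72, SE 0.24, edgeR p 0.0176, adjusted 0.472), as did 5.64% of all genes tested. The raw counts of ints13 were 357, 352 and 230 at 72 hpf, against 449, 617 and 576 at 48 hpf. Over these 5 lists 0 of 59 tested genes passed the adjusted threshold, against 0.00622% of all genes tested.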

How the data were processed

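Bulk RNA of sorted atrial CMs was sequenced single-end, with 3 libraries at 72 hpf and 3 at 48 hpf, grouped by their labels. The deposited values are raw counts per gene, not normalised. Per the labels and the study's methods, the authors used Trimmomatic 0.39 for trimming, STAR 2.7.10a for alignment to danRer11, Picard 3.0.0 to discard duplicates, and featureCounts 2.0.4 to count reads on exons. They also discarded reads of ribosomal or mitochondrial origin, reads that map to several places and reads that overlap more than 1 gene. Whether counting used strand is not given in the sources used here. Coordinates are those of the table, on danRer11. By these coordinates 25 of the 131 genes overlap another gene of the table.

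The stages were tested on the counts by edgeR 4.0.16 under R 4.3.3 (TMM, robust quasi-likelihood test, genes with a mean normalised count above 5), with Benjamini-Hochberg adjustment over all 16073 genes tested. A call needed an adjusted p below 0.05 and a fold change beyond 1.5. The standard error was taken as the size of the log2 fold change over the square root of F. DESeq2 1.42.0, other scalings, other filters, the sorter, replicates 1 and 2 only, a replicate block and leaving out each library were alternatives. The script was tested on simulated data. Named were the 8 genes of lowest p in each direction, the gene with the most counts and the one with the largest estimate in each role list, the 5 genes with the most and the 2 with the fewest counts, and any gene passing the thresholds, of which there were none. The result for 1 gene that this rule named is not reported here. Others are named where a sentence is about their role list, pair or overlap. The members and lists were chosen with earlier results of these data known. No column of values per library was left unused. The RefSeq assembly GRCz12tu served only to match gene names.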

Additional observations from a re-analysis of the deposited data

How the results depend on the processing

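The count of spliceosome genes past the adjusted threshold was 0 with TMM, RLE size factors, library totals, no scaling, DESeq2, other filters, no fold change threshold, the sorter as a covariate, the replicate block, replicates 1 and 2 only and each library left out. At an unadjusted p below 0.05 the count of genes higher at 72 hpf, 3 in edgeR, was 1 with the replicate block, 0 with replicates 1 and 2 only, 0 with no scaling for library size and 0 to 3 with each library left out. The count of genes lower at 72 hpf, 1 in edgeR, was 2 with DESeq2, 0 with no scaling and 0 to 1 with each library left out. Apart from DESeq2, the shares of all genes at that level under these settings are not given here. The counts therefore describe the spliceosome genes only. The deviations of libraries of the same number had correlations of -0.00871, 0.0948 and 0.00989 over all genes tested. Between libraries of unlike number they were -0.056 to 0.045. With 3 libraries a stage and many genes of low count, these values cannot decide whether the numbers pair the libraries. The median of the spliceosome genes with the replicate block was 0.07. The median log2 fold change was -0.058 with no scaling, where that of all genes was -0.17, and otherwise between 0.06 and 0.12, against 0.08. Genes whose libraries did not overlap numbered 12 higher and 5 lower, and 35 and 13 with replicates 1 and 2 only, where 2 libraries a stage overlap less by construction (19.9% and 21.9% of all genes). With no scaling 4 were higher and 4 lower (3.83% and 9.17% of all genes), and with each library left out, where the overlap is also less by construction, there were 13 to 31 higher (11.1% to 13.4% of all genes) and 6 to 12 lower (12.9% to 16.5%). With the replicate block the median of the Integrator list was 0.094, with 8 of 14 above 0, that of the SR protein kinases -0.44 and that of the minor spliceosome 0.0034. With the sorter as a covariate the Integrator list was at 0.094, also with 8 of 14 above 0, and the kinases at -0.44, and with replicates 1 and 2 only the hnRNP median was -0.080.

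Among 36 genes named by rule and 15 alternatives, 518 of 540 estimates kept their sign. Those that turned were, with no scaling, acin1a (-0.075), ddx5 (-0.11), hspa8 (-0.034), snw1 (-0.083) and zgc:163098 (-0.094), and, with replicates 1 and 2 only, ddx39b (-0.031), dhx8 (-0.066) and snw1 (-0.051). With 1 library left out, the sign turned in acin1a (-0.055 to 0.20), ddx39b (-0.043 to 0.57), ddx5 (-0.052 to 0.10), hsp70l (-0.00036 to 0.29), rp9 (-0.79 to 0.050), snw1 (-0.022 to 0.15), srsf5a (-0.11 to 0.0085) and zgc:163098 (-0.22 to 0.42). The cause was not tested. With 3 libraries a stage and a median standard error of 0.24, no spliceosome gene below 300 counts had its whole interval within 1.5-fold. Of all genes tested below that count, 0.123% had.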
